A study of Mus musculus with 4 samples.

Results

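Transcript levels of 8 genes were followed in mouse liver: the hepatocyte keratins Krt8 and Krt18, the duct keratins Krt7 and Krt19, the stress-inducible keratin Krt23, and the duct and progenitor markers Epcam, Sox9 and Spp1. They were taken by symbol from tables of 35522 genes, and all 8 were found. RNA sequencing gave 4 liver libraries of strain C57BL/6, from tissue taken 24 hours after diethylnitrosamine (DEN), a carcinogen that hepatocytes activate to a reactive compound. All 4 libraries are from DEN-treated mice, and 2 Control libraries were set against 2 labelled Dph1 KO. The Dph1 protein takes part in making diphthamide, a modification carried by the translation elongation factor eEF2. The labels give neither the cells in which Dph1 was removed, nor the Control allele, nor the age or sex of the mice. Whether each library is a separate animal is not said either, so the p-values reflect the spread of these samples alone, and that spread may be technical.

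Keratins are the intermediate filament proteins of epithelia. A filament is built from pairs of an acidic type I keratin (Krt18, Krt19 and Krt23 among these genes) and a basic type II keratin (Krt7 and Krt8). Hepatocytes contain the Krt8 and Krt18 pair almost alone, and this pair protects them from mechanical and toxic injury. Bile duct cells (cholangiocytes) contain Krt7 and Krt19 in addition. Epcam is a cell adhesion protein of the duct epithelium, Sox9 the transcription factor that marks duct fate, and Spp1 (osteopontin) a secreted matrix protein made by duct cells and also by activated macrophages. In injured liver, duct-like progenitor cells carry several of these markers, and some hepatocytes acquire Sox9.

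The libraries held 19474596 to 21137358 reads in genes. Dph1 itself was lower in both libraries labelled Dph1 KO, with 421 and 689 reads against 1292 and 1228 in Control (edgeR, Benjamini-Hochberg adjusted p = 0.0107). Over all genes, transcripts richer in G and C had lower fold changes (Spearman correlation of -0.62 across 12504 protein-coding genes, which are not independent), and values with that trend removed are given below as GC-corrected. In bulk liver, fewer cells of a type and less RNA per cell cannot be told apart.

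Krt18 and Krt23 fell in Dph1 KO libraries, and no gene of the group rose. Of the 8 genes, all tested, 2 were called lower by edgeR's quasi-likelihood test at a Benjamini-Hochberg adjusted p under 0.05, where 7.47% of 13303 tested genes were called lower, 4.86% higher and 12.3% in either direction. DESeq2 and limma-voom each called 2 lower and 0 higher. Of 13303 genes, DESeq2 called 1371 lower and 634 higher, and limma-voom 940 lower and 496 higher. At an unadjusted p under 0.05, edgeR found 4 lower and 0 higher, and 34.2% of all tested genes lay under that value. All 5 keratins of the group had both Dph1 KO libraries below both Control libraries in CPM (reads scaled to library size with TMM factors), a pattern that 32.5% of tested genes shared. A further 34.9% of tested genes had both Dph1 KO libraries above both Control libraries, so 67.4% did not overlap, while Epcam, Sox9 and Spp1 overlapped between the genotypes. The median log2 fold change of the 8 genes was -0.89, beside 0.04 over all tested genes.

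**Figure D1:**
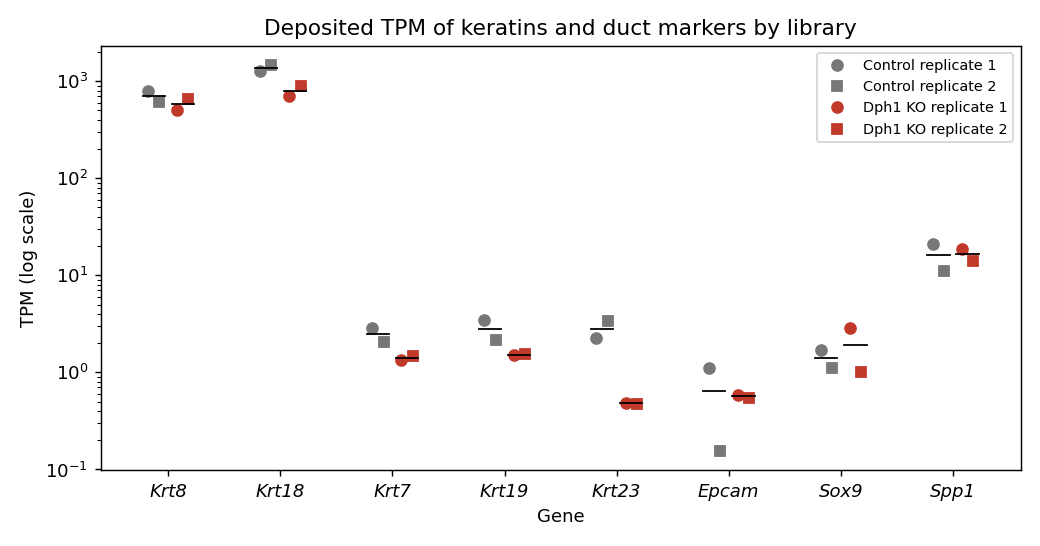
Deposited TPM (a transcript abundance that allows for gene length and library size) of each gene on a logarithmic axis, with 1 point per library and a line at the mean of each genotype. Krt8 and Krt18 lie between 499.7 and 1458 TPM, and the other 6 genes between 0.155 and 21.2 TPM.

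Krt8 and Krt18 supplied nearly all keratin transcripts in these libraries. On the per-length TPM scale they made up 99.5% and 99.5% of the summed keratin level in Control and 99.6% and 99.6% in Dph1 KO. The order of levels in Control ran from Krt18 and Krt8 through Spp1 to Krt23, Krt19, Krt7, Sox9 and Epcam. Control means of Krt23, Krt19 and Krt7 were 2.83 ± 0.773, 2.82 ± 0.946 and 2.46 ± 0.563 TPM (SD, n = 2 each), so these neighbours did not differ beyond their spread. Sox9 at 1.41 ± 0.407 TPM and Epcam at 0.638 ± 0.684 TPM were likewise within the spread of each other. In Dph1 KO libraries Krt23 came last, at 0.486 and 0.473 TPM, below Epcam at 0.590 and 0.549 TPM. These levels rest on few reads, 9 and 9 of Krt23 and 13 and 14 of Epcam, and their order was not tested.

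Krt18, the type I keratin of hepatocytes, lies on chromosome 15 (GRCm38, 102028216 to 102032026, plus strand, 7 exons). Its deposited level was 1273 and 1458 TPM in Control, against 695 and 883 TPM in the Dph1 KO libraries. Both Dph1 KO libraries thus stood below both Control libraries, with no overlap. In reads, it had 20854 and 25589 in Control, against 10473 and 15345 in the Dph1 KO libraries. Mean CPM went from 1278 ± 204 to 572 ± 182 (SD, n = 2 each), and the log2 fold change was -1.16 (SE 0.31; 95% interval -1.84 to -0.47; edgeR adjusted p = 0.0396). The call was lost when Control replicate 1 (adjusted p = 0.0749), Control replicate 2 (0.244) or Dph1 KO replicate 1 (0.0529) was left out, although the log2 fold change stayed between -1.51 and -0.84. The GC-corrected value was -0.66 (edgeR adjusted p = 0.0551), with a transcript GC content of 56.4%.

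Krt8, the type II partner of Krt18, lies on the same chromosome in the opposite orientation (101996711 to 102004342, minus strand, 9 exons). The start sites of the pair are 23874 bases apart. Krt8 stood at 797 and 604 TPM in Control and at 499.7 and 657 TPM in Dph1 KO, where Dph1 KO replicate 2 lay above Control replicate 2. In CPM, which here carries the TMM factors, the values were 918 and 762 in Control, against 413 and 675 in the Dph1 KO libraries, and the groups did not overlap. Krt8 was not called (log2 fold change -0.63, SE 0.30, 95% interval -1.30 to 0.04, edgeR adjusted p = 0.168). The value moved with single libraries: it was -0.29 without Dph1 KO replicate 1, and -1.01 when Dph1 KO replicate 2 was left out, where Krt8 was called (adjusted p = 0.00879) among 39.3% of all genes. GC-corrected, it was -0.13 (edgeR adjusted p = 0.704).

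The unequal values of the pair show in their ratio within a library, which scaling between libraries does not touch. The level of Krt8 per Krt18, in TPM, was 0.626 and 0.414 in Control, against 0.719 and 0.744 in the Dph1 KO libraries. Both Dph1 KO libraries had more Krt8 per Krt18 than either Control library. The mean log2 ratio was -0.97 ± 0.42 in Control and -0.45 ± 0.03 in Dph1 KO (SD, n = 2 each), a difference of 0.52. Most of that difference rested on Control replicate 2: without this library it was 0.22, and without Control replicate 1 it was 0.82. An exact two-sided permutation test of 2 libraries against 2 cannot go below p = 0.333, so the ratio was given without a test.

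Not all Krt8 reads were unique. A processed pseudogene, Krt8-ps, matched the Krt8 transcript over 941 bases at 98.6% identity, and only 63.9% to 64.0% of Krt8 reads were unique in each library. The pseudogene was listed with 0 reads in all 4 libraries, and where else the other Krt8 reads match was not tested. With uniquely matched reads alone, the log2 fold change of Krt8 was -0.63, the same to 2 decimals as with all its reads, and that of Krt18 was -1.16. Krt18 reads were 99.9% unique.

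**Figure D2:**
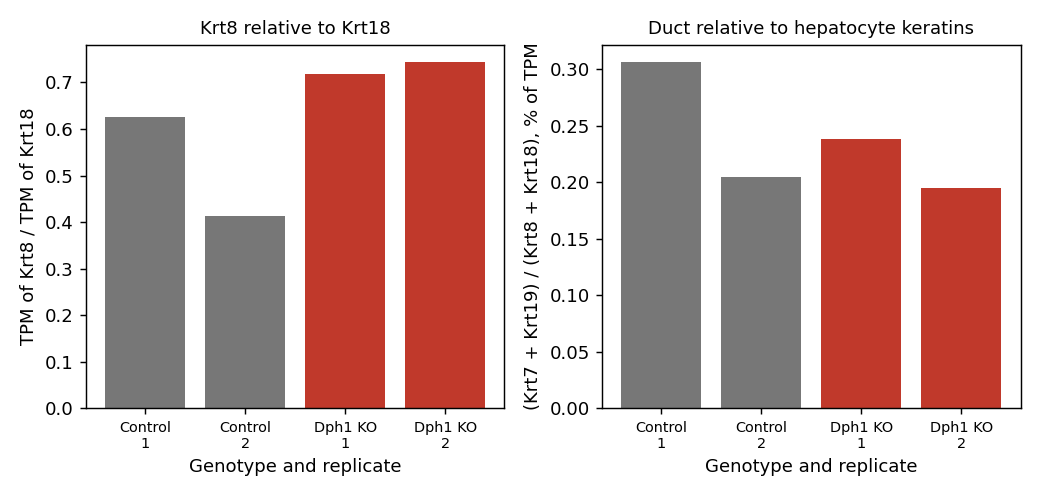
Ratios of deposited TPM within each library, 1 bar per library: Krt8 over Krt18 (left), and summed Krt7 and Krt19 as a percentage of summed Krt8 and Krt18 (right). The left ratio is 0.719 and 0.744 in Dph1 KO against 0.626 and 0.414 in Control, while the right one overlaps between the genotypes.

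The 250 bases before the RefSeq start site of 4 keratins (GRCm38.p6) are given because these 4 genes were lower together in CPM but by different amounts. Of the 8 genes, 6 were matched in the promoter table, all except Krt19 and Sox9. Capitals mark matches on either strand to 6 motifs. The first was TATAAA, the core promoter box. The next was its relaxed form ATAAAA, added after the sequences were seen, which overlaps the former where an A follows it. The others were GGGCGG, the Sp1 site or GC box, then TGANTCA, bound by AP-1, the CCAAT box, and CCGGAAG, a core bound by ETS factors.
Krt18, chr15:102027966-102028215, plus strand: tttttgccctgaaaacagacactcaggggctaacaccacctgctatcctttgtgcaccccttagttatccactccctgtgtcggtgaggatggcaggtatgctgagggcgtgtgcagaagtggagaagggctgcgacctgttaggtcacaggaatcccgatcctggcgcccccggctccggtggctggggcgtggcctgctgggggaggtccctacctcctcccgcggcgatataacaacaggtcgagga
Krt8, chr15:102004343-102004592, minus strand: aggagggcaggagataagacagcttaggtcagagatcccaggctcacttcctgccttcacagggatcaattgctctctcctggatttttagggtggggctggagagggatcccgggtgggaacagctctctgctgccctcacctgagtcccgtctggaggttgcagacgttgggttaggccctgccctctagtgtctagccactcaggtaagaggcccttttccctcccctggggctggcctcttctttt
Krt7, chr15:101412153-101412402, plus strand: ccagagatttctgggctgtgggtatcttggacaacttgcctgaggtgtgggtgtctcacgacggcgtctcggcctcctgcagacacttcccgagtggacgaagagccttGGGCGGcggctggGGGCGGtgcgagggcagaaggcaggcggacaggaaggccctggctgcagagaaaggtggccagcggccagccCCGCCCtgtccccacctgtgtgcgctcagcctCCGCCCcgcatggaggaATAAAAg
Krt23, chr11:99493121-99493370, minus strand: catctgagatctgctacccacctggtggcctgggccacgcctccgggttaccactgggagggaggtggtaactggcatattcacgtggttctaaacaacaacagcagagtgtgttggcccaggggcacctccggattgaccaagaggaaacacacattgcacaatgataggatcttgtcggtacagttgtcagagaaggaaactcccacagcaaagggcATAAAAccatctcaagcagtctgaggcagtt
None of the 6 motifs was found in the windows of Krt18 and Krt8. Krt7 held 4 GC boxes, the one nearest to the start beginning at position -24, and an ATAAAA match at -7. Krt23 held an ATAAAA match at -31. Epcam, whose window is not printed, held an ATAAAA match at -27 and 1 GC box. Spp1, not printed either, held TATAAA at -211, a CCAAT box at -46 and an ETS core at -234. In the window of another Spp1 start site, ATAAAA matched at -186. Among 32851 promoters of the same length, 32.7% held the GC box, 17.0% the relaxed form, 12.4% the core promoter box itself, 33.8% the CCAAT box, 6.75% the AP-1 motif and 6.91% the ETS core. These are matches of letters and were not tested as sites.

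Krt23 changed most among the 8 genes. It encodes a type I keratin that is known to be induced in stressed and injured liver, and it lies on chromosome 11 (99477973 to 99493110, minus strand, 8 exons). Its reads numbered 41 and 65 in Control, against 9 and 9 in the Dph1 KO libraries, all uniquely matched. Its level was 2.28 and 3.38 TPM in Control, against 0.486 and 0.473 TPM in the Dph1 KO libraries, with a wide gap between the genotypes. The mean CPM in Dph1 KO was 13.6% of that in Control. The log2 fold change was -2.86 (SE 0.43; 95% interval -3.82 to -1.91; edgeR adjusted p = 0.00472). The call held in each of the 4 fits with 1 library left out, at -3.18 to -2.48, and after GC correction at -2.68 (edgeR adjusted p = 0.00672). Krt23 passed the filter on low counts only through the Control libraries. With no such filter its log2 fold change was -2.87 and it was called as well.

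The duct keratins were lower in both Dph1 KO libraries but missed the threshold. Krt19, the type I keratin of ducts (chromosome 11, 100140810 to 100145919, minus strand, 6 exons), had 59 and 37 reads in Control, against 22 and 27 in the Dph1 KO libraries. Per length these were 3.49 and 2.15 TPM in Control, against 1.496 and 1.53 TPM in the Dph1 KO libraries. The groups did not overlap, and Control replicate 1 was the highest of the 4. Its log2 fold change was -1.28 (SE 0.38; 95% interval -2.11 to -0.45; edgeR adjusted p = 0.0505). This value lies at the threshold. Krt19 was called with unique reads (edgeR adjusted p = 0.0476), with exon reads (0.0467), with DESeq2's size factors in edgeR (0.0462) and with no count filter (0.0274). It was not called with DESeq2 (adjusted p = 0.0590), limma-voom (0.0603) or limma-trend on log2(TPM + 1) (0.208). Nor was it called by edgeR with a minimum mean of 1 CPM (0.0576) or library totals only (0.0679). With 1 library left out, the log2 fold change was between -1.57 and -0.93. GC-corrected it was -0.70 (edgeR adjusted p = 0.217).

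Krt7, the type II partner of Krt19 in ducts (chromosome 15, 101412403 to 101427806, plus strand, 9 exons), had 54 and 42 reads in Control, against 24 and 30 in the Dph1 KO libraries. Its level was 2.86 and 2.07 TPM in Control, against 1.36 and 1.48 TPM in the Dph1 KO libraries, again without overlap. The log2 fold change was -1.14 (SE 0.35; 95% interval -1.92 to -0.36; edgeR adjusted p = 0.0569), and -0.92 after GC correction (edgeR adjusted p = 0.0891). Krt7 was called with no count filter (edgeR adjusted p = 0.0393). It was not called with DESeq2 (adjusted p = 0.0825), limma-voom (0.0622) or edgeR with library totals only (0.101). With 1 library left out, its log2 fold change was between -1.36 and -0.92. Krt7 and Krt19 kept to each other closely, with a log2 ratio of Krt7 to Krt19 in TPM between -0.29 and -0.05 in the 4 libraries.

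Relative to hepatocyte keratins, duct keratins did not separate the genotypes. Summed Krt7 and Krt19 amounted to 0.307% and 0.204% of summed Krt8 and Krt18 TPM in Control and to 0.239% and 0.195% in Dph1 KO. The difference in mean log2 ratio, -0.21, was smaller than the SD of 0.33 between replicates. Leaving out Control replicate 1 turned its sign (0.08), and without Control replicate 2 it was -0.51.

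Epcam, Sox9 and Spp1 gave no call and no common direction. Epcam (chromosome 17, 87635979 to 87651127, plus strand, 10 exons) had 27 and 4 reads in Control, against 13 and 14 in the Dph1 KO libraries. The Control libraries thus enclosed both Dph1 KO libraries, at 1.12 and 0.155 TPM against 0.590 and 0.549 TPM. Its log2 fold change of -0.51 had a 95% interval of -1.99 to 0.97 (edgeR adjusted p = 0.610), and it was 1.39 without Control replicate 1 and -1.30 without Control replicate 2, so no difference was detectable at this depth.

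Sox9 (chromosome 11, 112782210 to 112787757, plus strand, 3 exons) had 82 and 58 reads in Control, against 132 and 52 in the Dph1 KO libraries. The 2 Dph1 KO libraries held the highest and the lowest level of the 4, 2.84 and 1.01 TPM, around 1.69 and 1.12 TPM in Control. The log2 fold change was 0.06 (SE 0.39; 95% interval -0.80 to 0.91; edgeR adjusted p = 0.932). It was -0.67 without Dph1 KO replicate 1, and 0.55 when replicate 2 was left out.

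Spp1 (chromosome 5, 104435111 to 104441053, plus strand, 10 exons) was the most abundant of the duct markers. It had 411 and 228 reads in Control, against 336 and 290 in the Dph1 KO libraries, or 21.2 and 10.9 TPM against 18.7 and 14.1 TPM. Here too the Control libraries enclosed both Dph1 KO libraries. The log2 fold change was -0.35 (SE 0.26; 95% interval -0.93 to 0.23; edgeR adjusted p = 0.360), with -0.62 after GC correction (edgeR adjusted p = 0.122). Leaving out Control replicate 1 gave 0.11, and leaving out Control replicate 2 gave -0.70.

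**Figure D3:**
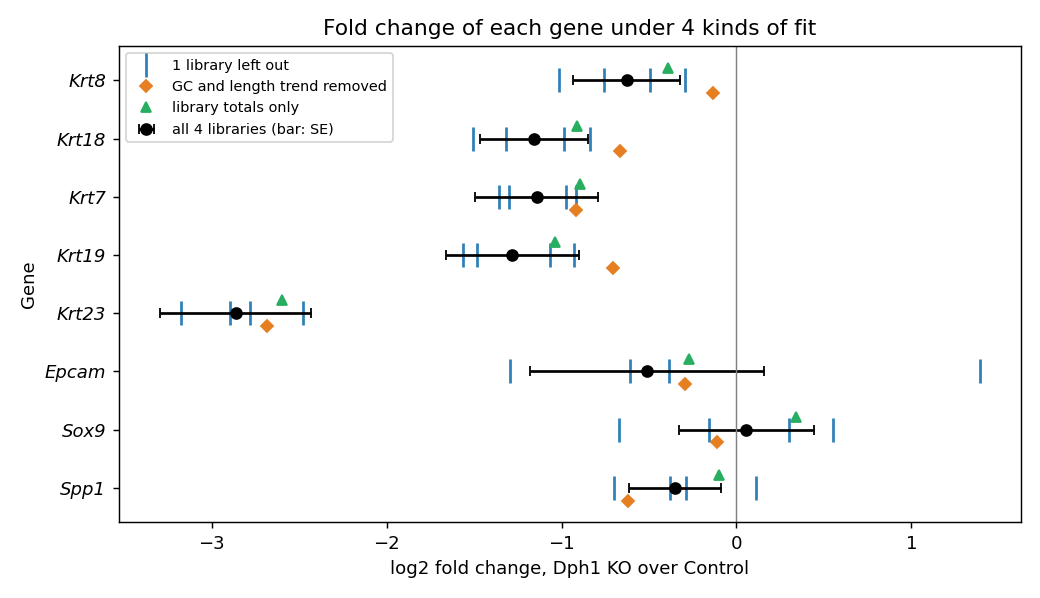
Log2 fold change of each gene, Dph1 KO over Control: black points with SE bars from all 4 libraries, blue ticks with 1 library left out, green triangles scaled by library totals only, and orange diamonds with the GC and length trend removed. The 5 keratins lie left of 0 in all these fits, Krt23 farthest at -2.86, while Epcam, Sox9 and Spp1 have ticks on both sides of 0.

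Scaling by library totals alone, without TMM factors, moved the median log2 fold change of all tested genes from 0.04 to 0.30 and the share of rises among calls from 39.4% to 76.9%. Of 13303 tested genes, 2633 were then called higher and 789 lower. Counts given below for this scaling are to be read beside these. The 5 keratins kept their sign: Krt8 was at -0.39, Krt7 at -0.89, Krt18 at -0.91, Krt19 at -1.03 and Krt23 at -2.60. After GC correction 1 of the 8 genes, Krt23, was called, where 10.3% of 12517 genes were and 5.61% were lower. The median of the 8 genes was then -0.64 beside -0.01 over all genes. Deposited TPM carry no TMM factors either. With limma-trend on log2(TPM + 1), the median log2 fold change of all tested genes was 0.23. Summed TPM given below are to be read beside this value.

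Other keratins were almost absent. Of 45 further keratin genes in the tables, 30 had no read in any library, and no gene among the other 15 had more than 24 reads in a library. Only 2 of them passed the count filter. Krt10, a keratin of differentiating epidermis, had 14 and 16 reads in Control, against 22 and 17 in the Dph1 KO libraries, and was not called (edgeR adjusted p = 0.942). Krt5, the basal cell keratin, had 16 and 24 reads in Control, against 3 and 5 in the Dph1 KO libraries. It fell with a log2 fold change of -2.60 (SE 0.55; edgeR adjusted p = 0.0207), passed the filter only through Control, and lost its call without Control replicate 2 or Dph1 KO replicate 1. Krt10 and Krt5 are named after their values were seen.

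Further duct markers were mostly uncalled. Of 20 other cholangiocyte genes, 12 were tested, of which 1 fell and 11 were not called by edgeR, with a median log2 fold change of -0.41. With no adjustment, 5 had p under 0.05 and all 5 were lower, and DESeq2 called 2 lower. With library totals only, 1 was higher and 1 lower at that unadjusted p, so the count of 5 depends on the scaling. The gene that fell was Elf3, an epithelial ETS transcription factor, with 75 and 69 reads in Control, against 37 and 32 in the Dph1 KO libraries (log2 fold change -1.38 with an SE of 0.31, edgeR adjusted p = 0.0232). The call was lost after GC correction (-0.90, edgeR adjusted p = 0.0693) and without either Control library. The summed level of the list was 50.7 and 51.1 TPM in Control, against 51.6 and 49.8 TPM in the Dph1 KO libraries. St14, a membrane serine protease gene named after its values were seen, made up much of this sum, at 22.7 and 24.4 TPM in Control, against 30.04 and 30.8 TPM in the Dph1 KO libraries, and was not called (log2 fold change 0.01). Without St14 the list summed to 28.0 and 26.8 TPM in Control, against 21.5 and 19.0 TPM in the Dph1 KO libraries, with both Dph1 KO libraries below both Control libraries. The chloride channel gene Cftr, also named after its values were seen, had 4 and 4 reads in Control, against 1 and 1 in the Dph1 KO libraries. Sctr, likewise named after its values were seen, went the other way, with 1 and 1 reads in Control, against 3 and 2 in Dph1 KO. The part of duct cell content in the values of Krt7 and Krt19 was not tested.

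The pathways that direct duct fate were also read out. Of 11 tested Notch genes, 1 rose and 10 were not called (median log2 fold change 0.02). The gene that rose was Jag2, a Notch ligand, with 27 and 20 reads in Control, against 105 and 145 in the Dph1 KO libraries. The log2 fold change was 2.09 (SE 0.34; edgeR adjusted p = 0.00735), 2.64 when GC-corrected, and between 1.79 and 2.38 with any 1 library removed. With library totals only, 3 Notch genes were called higher and 0 lower, where 2633 of 13303 tested genes were called higher and 789 lower. Among 15 tested genes of the Hippo pathway, which restrains the coactivator YAP, edgeR called 0, with 1 higher and 3 lower at an unadjusted p under 0.05, while limma-voom called 0 and DESeq2 called 1 lower. With library totals only, the balance turned, as it did over all tested genes. Then 3 Hippo genes were called higher and 0 lower, and 7 were higher and 0 lower with no adjustment. Yap1 itself had a log2 fold change of 0.33 (edgeR adjusted p = 0.270; 0.59 and 0.0469 with library totals only), and the YAP target Cyr61 of -0.69 (edgeR adjusted p = 0.0541).

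Osteopontin acts through integrins and Cd44. Of 8 tested receptor genes, 1 rose and 1 fell, and both calls were lost with GC correction and when either Control library was removed. Itgb1, the shared beta-1 integrin subunit, had a log2 fold change of 0.78 (SE 0.22; edgeR adjusted p = 0.0482), and Itga5, its fibronectin receptor partner, fell by 0.83 on the log2 scale (SE 0.21; edgeR adjusted p = 0.0346). Itgb1 was also lost without Dph1 KO replicate 1, with limma-voom and with unique reads. Library totals only gave 2 higher and 1 lower.

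Genes for proteins that anchor keratin filaments were not called with TMM scaling. Of 10 genes of desmosomes and keratin linkers, all tested, edgeR called 0, limma-voom 0 and DESeq2 1 higher, with 3 higher and 1 lower at an unadjusted p under 0.05. Perp, a desmosomal membrane protein gene, stood at 103 and 104 TPM in Control, against 242 and 165 TPM in the Dph1 KO libraries (log2 fold change 0.56, edgeR adjusted p = 0.110). With library totals only, 3 genes of this list were called higher and 0 lower, Perp among them (0.83, edgeR adjusted p = 0.0105). Over all 13303 tested genes, that scaling called 2633 higher and 789 lower. The plakoglobin gene Jup had a log2 fold change of -0.55 (edgeR adjusted p = 0.125). Of 5 tested genes for proteins of keratin inclusions and their chaperones, edgeR called 0, limma-voom 0 and DESeq2 1 lower, with 0 higher and 2 lower at an unadjusted p under 0.05, while library totals only gave 1 higher. Sqstm1, whose product p62 collects in keratin aggregates, stood at 559 and 521 TPM in Control, against 579.6 and 510.1 TPM in the Dph1 KO libraries.

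Among 7 tested intermediate filament genes outside the keratins, 1 rose and 2 fell. Synm, which encodes the filament linker synemin, rose by 1.06 on the log2 scale (SE 0.22; edgeR adjusted p = 0.0198), a call lost without Control replicate 2. The mesenchymal filament genes Vim (-0.72, edgeR adjusted p = 0.0445) and Des (-0.91, edgeR adjusted p = 0.0464) fell, and both were lost without Control replicate 1, Control replicate 2 or Dph1 KO replicate 1, and with library totals only. After GC correction, Synm and Vim were called and Des was not.

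Markers of other liver cells are given because hepatocytes, macrophages and mesothelium also express some of the 8 genes. No hepatocyte marker was called among 12 by edgeR or limma-voom, with 1 higher and 0 lower at an unadjusted p under 0.05, while DESeq2 called 1 higher and 1 lower and edgeR with library totals only 1 higher. Their summed TPM was 129650 to 130057 in Control and 134838 to 152708 in Dph1 KO, while their median log2 fold change was -0.17. Of 11 macrophage markers, 1 fell, and with library totals only 2 were higher and 1 lower. This was the lysosomal glycoprotein gene Cd68 (log2 fold change -1.18, SE 0.23, edgeR adjusted p = 0.0159), at 169 and 144 TPM in Control, against 83.9 and 93.9 TPM in the Dph1 KO libraries. The list summed to 275 to 300.1 TPM in Control and 234 to 287 TPM in Dph1 KO, and Cd68 made up much of this sum. The median log2 fold change of the 11 markers was 0.08. The part of macrophages in the level of Spp1 was not tested. Of 10 stellate cell markers 3 fell (Acta2, Col1a1 and Des) and 1 rose (Rgs5), and only Acta2 kept its call after GC correction. With library totals only, 2 were higher and 2 lower. Acta2, which encodes smooth muscle actin, stood lowest at a log2 fold change of -2.16 (SE 0.26; edgeR adjusted p = 0.00119), and the list summed to 101 to 104 TPM in Control and 106 to 147 TPM in Dph1 KO.

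Mesothelial cells, which carry Krt8, Krt18 and Krt19, were faint. Of 6 matched markers 3 were tested, none was called by edgeR, limma-voom or DESeq2, and 0 had an unadjusted p under 0.05. Their summed TPM was 2.75 and 4.02 in Control, against 4.35 and 1.73 in the Dph1 KO libraries, and the genotypes overlapped. Endothelial markers summed to 89.3 to 104 TPM in Control and 107 to 131 TPM in Dph1 KO, but their median log2 fold change was -0.09. Of 8 tested, edgeR called 0, or 1 lower after GC correction. At an unadjusted p under 0.05, 0 were higher and 1 was lower. Lymphocyte markers, of which the B cell gene Cd79a fell (edgeR adjusted p = 0.0338), summed to 6.01 to 6.85 TPM in Control and 6.41 to 6.51 TPM in Dph1 KO. For neutrophil markers these sums were 2.59 to 6.48 and 4.13 to 6.69 TPM. Pancreatic acinar markers, a check for neighbouring tissue, summed to 10.9 to 11.1 TPM in Control and 16.1 to 17.9 TPM in Dph1 KO, with 3 of 6 genes at 0 reads throughout. Cela1 made up most of this sum, at 8.36 and 9.39 TPM in Control, against 16.7 and 14.9 TPM in the Dph1 KO libraries. Cela2a went the other way, with 21 and 17 reads in Control, against 13 and 13 in the Dph1 KO libraries. So did Prss2, named after its values were seen, with 7 and 3 reads against 1 and 2. Of 2 tested, edgeR called 0, or 1 higher after GC correction.

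**Figure D4:**
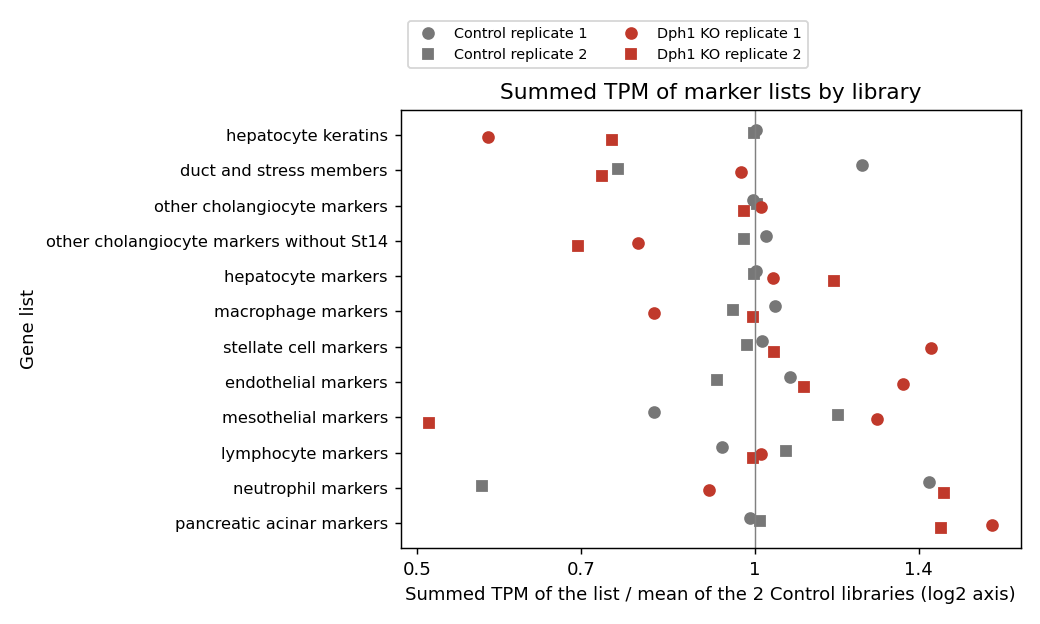
Summed TPM of each gene list in each library, divided by the mean of the 2 Control libraries, on a log2 axis. The hepatocyte keratins sit below both Control libraries in both Dph1 KO libraries, whereas the other cholangiocyte markers, at 49.8 to 51.6 TPM in all 4 libraries, do so only when St14 is left out.

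The genes with the profiles nearest to Krt8 and Krt19 were sought among 7507 protein-coding genes with a mean of at least 10 CPM, by the Euclidean distance of centred log2 CPM over the 4 libraries. Nearest to Krt8 were 2810428I15Rik (distance 0.04), Mettl22 (0.05) and Coro1b (0.05), of which none was called. Coro1b, an actin-binding coronin gene, had 156 and 134 CPM in Control, against 73.2 and 116 CPM in the Dph1 KO libraries. Nearest to Krt19 were Pkdcc (0.12), 6330416G13Rik (0.17) and Rarres1 (0.22), and all 3 fell. Rarres1, a retinoid-responsive gene, had 57.3 and 33.7 CPM in Control, against 14.4 and 21.1 CPM in the Dph1 KO libraries (log2 fold change -1.36, edgeR adjusted p = 0.0187). All 3 calls were lost without Control replicate 1. With 4 libraries many genes share a profile, so these names describe likeness only.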

How the data were processed

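Liver RNA was taken from frozen tissue with Trizol and made into stranded mRNA libraries, per the labels' protocols. Per the submitters' processing notes, reads were placed on GRCm38 (mm10); the aligner, read counter and strand setting were not given in the sources used here. The deposited tables give whole-number read counts per gene (total, unique, exon and intron reads), per the file headers. The authors computed the TPM and RPKM values from exon reads, per the file headers. The deposited ratios, each a fraction of a gene's reads, were not used. A total count also holds reads with more than 1 possible place.

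Total gene reads were tested with edgeR 4.0.16 in R 4.3.3 (filterByExpr with a minimum count of 10, TMM, glmQLFit and glmQLFTest, genotype only), with Benjamini-Hochberg adjustment over 13303 genes and a threshold of 0.05. "Rose" and "fell" mean past it. The SE is the log2 fold change over the square root of F, and 95% intervals use the t distribution of the fit. CPM are scaled by TMM factors. No pair of one genotype agreed within sampling noise (chi-square per degree of freedom 32.0 and 83.0), so no pair was counted as 1 sample. The GC correction fitted a smooth trend on transcript GC (longest GENCODE M21 transcript, 99.8% of tested protein-coding genes) and exon length per library (mgcv 1.9.3, basis of 6). DESeq2 1.42.0, limma 3.58.1 (voom, and trend on log2(TPM + 1)), and further scalings, count filters and kinds of read, and leaving out 1 library at a time, were alternatives. Similar copies were sought with BLAST 2.17.0 (e-value 1e-20, at least 90% identity over 200 bases), which took 2 genes, Krt8-ps and a Krt18 copy with 1 read in all. Promoters are from RefSeq.

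The 8 genes and the gene lists were chosen with earlier results of these data known. Of 163 list entries, 1 was not matched. Named genes were the 8 genes, up to 3 called genes of each list with the lowest p or else its 2 most abundant, other keratins with a mean of at least 1 CPM (0 genes), and the 3 genes nearest to Krt8 and to Krt19; the text names a part of these, and a gene named outside this rule is marked as such.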

Additional observations from a re-analysis of the deposited data

How the results depend on the processing

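The number of genes called, 1640, was 3422 with library totals only, 3 with limma-trend on log2(TPM + 1), and 528 to 5405 with 1 library left out (749 without Control replicate 1, 528 without the other Control library, and 5405 without Dph1 KO replicate 2). The number of the 8 genes called, 2, was 4 with no count filter, 1 after GC correction, 0 with limma-trend on log2(TPM + 1), where 4 keratins had smaller log2 fold changes with adjusted p from 0.180 to 0.208, and 1 to 5 with 1 library left out. That pseudocount understates the change of low genes such as Krt23 (-1.36 there). Krt18, at a far higher level, was at -0.80 there, against -1.16 in the main fit and -0.91 with library totals only. TPM carry no TMM factors, and the median over all tested genes was 0.23 with limma-trend against 0.04 in the main fit. The part of the scaling in the shift of Krt18 was not tested. The difference between genotypes in the log2 ratio of Krt8 to Krt18 was 0.52 from TPM, from unique exon reads per length and from total gene reads. That in the ratio of duct to hepatocyte keratins was -0.21, -0.16 and -0.24. RPKM gives the same ratios as TPM by construction. With 2 libraries per genotype, leaving out 1 cannot move either difference by more than 1 SD. The values with 1 library left out, given above, are therefore no measure of stability. Over the 8 genes, 87 values from alternatives kept their direction and their side of the threshold, 8 newly passed it, 6 no longer passed it and 9 changed sign, and over the other named genes these were 415, 15, 59 and 18. Epcam gave no value with a minimum mean of 1 CPM, which it did not reach. Among the named genes, the log2 fold change changed its sign only where the gene was not called. Epcam was at 0.0003 with limma-voom, 0.0036 with limma-trend and -1.30 to 1.39 with 1 library left out. Sox9 was at -0.0458 with limma-voom, -0.11 after GC correction and -0.67 to 0.55 with 1 library left out. Spp1 was at 0.0853 with limma-trend and -0.70 to 0.11 with 1 library left out. After GC correction Yap1 was at -0.0495, Hspb1 at 0.0538, Hpx at 0.0076 and Clec4g at 0.18. With limma-trend Sqstm1 was at 0.011, Hpx at 0.0167, Clec4g at 0.35, Oit3 at 0.24 and S100a9 at 0.0383. With library totals only Clec4g was at 0.23 and Oit3 at 0.12. With 1 library left out Hpx was at -1.01 to 0.29, Clec4g at -0.12 to 0.0589, Krt10 at -0.0619 to 0.1912, Retnlg at -1.10 to 0.12 and S100a9 at -1.11 to 1.14. The cause of these shifts was not tested. No paired analysis was possible because the labels give no replicate numbers that link the genotypes. Genes with under 100 reads per library (Krt7, Krt19, Krt23, Epcam) are limited by depth.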

Other observations

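A few duct genes with very low counts had most of their reads in Control replicate 1, and are named after their values were seen. The matrix protease gene Mmp7 had 8 and 3 reads in Control and 0 in both Dph1 KO libraries, where a count of 0 allows up to 3 reads in a library. The mucosal scavenger protein gene Dmbt1 had 15 reads in Control replicate 1 and 0 in the other 3 libraries. The tight junction gene Cldn4 had 15 and 3 reads in Control, against 2 and 4 in Dph1 KO. Other faint genes of the same list, also named after their values were seen, had more reads in Dph1 KO. Dcdc2a had 20 and 4 reads in Control, against 33 and 28 in Dph1 KO. Ehf had 12 and 2 against 15 and 8, and Tspan8 had 5 and 2 against 6 and 6. Control replicate 1 was also the library with the most reads of Epcam, Krt7, Krt19 and Spp1. Mmp7, Dmbt1, Cldn4 and Tspan8 did not pass the count filter and were not tested. Dcdc2a and Ehf were not called (edgeR adjusted p = 0.219 and 0.715). The spread of these reads over the libraries was not tested.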
